A study of Mus musculus with 6 samples.

Results

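The 3 genes Ccl2, Ccl7 and Ccl12 lie within 110 kb of mouse chromosome 11. The members described here are all deposited peaks of p300, PU.1 and H3K4me1 that overlap a 110 kb interval of build mm9, from -29.1 kb to 80.9 kb of the p300 summit at Ccl2, and the reads of all 8 libraries in them. These are 16 of the 19879 p300 sites of the series, 24 of its 87955 PU.1 sites and 27 of its 84743 H3K4me1 peaks, where a site is the union of overlapping LPS and untreated peaks. The cells were day 7 macrophages differentiated from Fvb mouse bone marrow. They were given lipopolysaccharide (LPS, 10 ng/ml) for 2 h or left untreated. Both groups were fixed for 10 min in 1% formaldehyde before precipitation. p300 had 2 biological replicates per condition, PU.1 had 1 library per condition, and H3K4me1 and the input DNA had 1 library each, from untreated cells. The labels name no transgene or deletion in any group. The cell type rests on the labels alone, since its marker genes were not analysed here.

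CCL2, CCL7 and CCL12 are monocyte chemoattractant proteins, secreted chemokines that act through the receptor CCR2 and draw monocytes into inflamed tissue. LPS is sensed by TLR4, and macrophages are known to transcribe these genes more strongly after LPS. p300 is a histone acetyltransferase found at active enhancers and promoters. PU.1 is an ETS-family factor that the macrophage lineage needs, and H3K4me1, a mark of enhancers, is usually sparse at the start sites of active genes. Transcripts were not measured in these libraries, so the values below are chromatin occupancy. In the RefSeq order of genes on GRCm38.p6, Ccl7 follows Ccl2, and Ccl11, which encodes a ligand of CCR3, lies between Ccl7 and Ccl12 with the long noncoding RNA Gm38913.

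The libraries held 5744811 to 7828655 aligned reads and 5503587 to 6428281 distinct ones. The p300 libraries differed in enrichment, with 2.31% and 5.49% of distinct reads inside the matching p300 list for LPS replicates 1 and 2, and 1.44% and 6.2% for untreated replicates 1 and 2. Levels across libraries are given in RPM, reads per 1000000 distinct reads. Across the 16 p300 sites, RPM over that of input ranged from 0.88 to 3.58 in LPS replicate 1 and from 2.09 to 9.02 in LPS replicate 2. The same ratio ranged from 0.269 to 1.88 in untreated replicate 1 and from 2.76 to 17.9 in untreated replicate 2, so untreated replicate 1 stood near the level of input.

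The interval held many deposited peaks. Across 21264 other windows of the same 110 kb length, 2 held more p300 sites than its 16 and 2 held more PU.1 sites than its 24, while the median window held 0 and 3. p300 over the whole interval was 131.9 and 295.3 RPM in the LPS replicates, against 94.9 and 298.2 in the untreated replicates. More p300 reads were found in 14, 5, 156 and 4 other windows in these libraries. PU.1 gave 457.4 RPM after LPS and 390.3 in untreated cells, exceeded by 3 and 5 windows. H3K4me1 gave 481.4 RPM, exceeded by 57 windows.

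Input was also high over the interval, at 122.7 RPM against a median of 40.8 over the windows, with 17 windows above it. Outside all deposited peaks, which left 63.2 of the 110 kb, input had 0.804 RPM per kb, 2.84 times its value in the 10 kb background bins of the genome. The same outside-peak ratio was 2.16 and 2.72 for the LPS p300 replicates, 1.83 and 2.1 for the untreated p300 replicates, 4.36 for PU.1 after LPS, 2.95 for untreated PU.1 and 12.6 for H3K4me1. Unlike the windows, the background bins had no minimum of input reads, so bins with few reads can raise all of these outside-peak ratios. Over the whole interval, RPM over that of input was 1.08 and 2.41 in the LPS p300 replicates and 0.773 and 2.43 in the untreated p300 replicates. It was 3.73 for PU.1 after LPS and 3.18 for untreated PU.1. Replicate 1 of p300 thus lay inside the central 95% of the windows for this ratio, which ran from 0.6 to 1.67 after LPS and from 0.567 to 1.75 in untreated cells. Replicate 2 of p300 and both PU.1 libraries lay above theirs, which ended at 1.8 and 1.7 for p300 and at 2.31 and 2.37 for PU.1. The ranks of p300 replicate 1 by RPM alone therefore do not hold relative to input. Within the peaks of the interval, p300 had 1.97 and 5.37 RPM per kb in the LPS replicates and 1.3 and 5.67 RPM per kb in the untreated replicates. PU.1 had 9.11 RPM per kb after LPS and 7.93 in untreated cells, and H3K4me1 had 9.19. Input had 1.54 RPM per kb in the same peaks, so replicate 1 of p300 was near it in both conditions and the other libraries were above it.

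**Figure D1:**
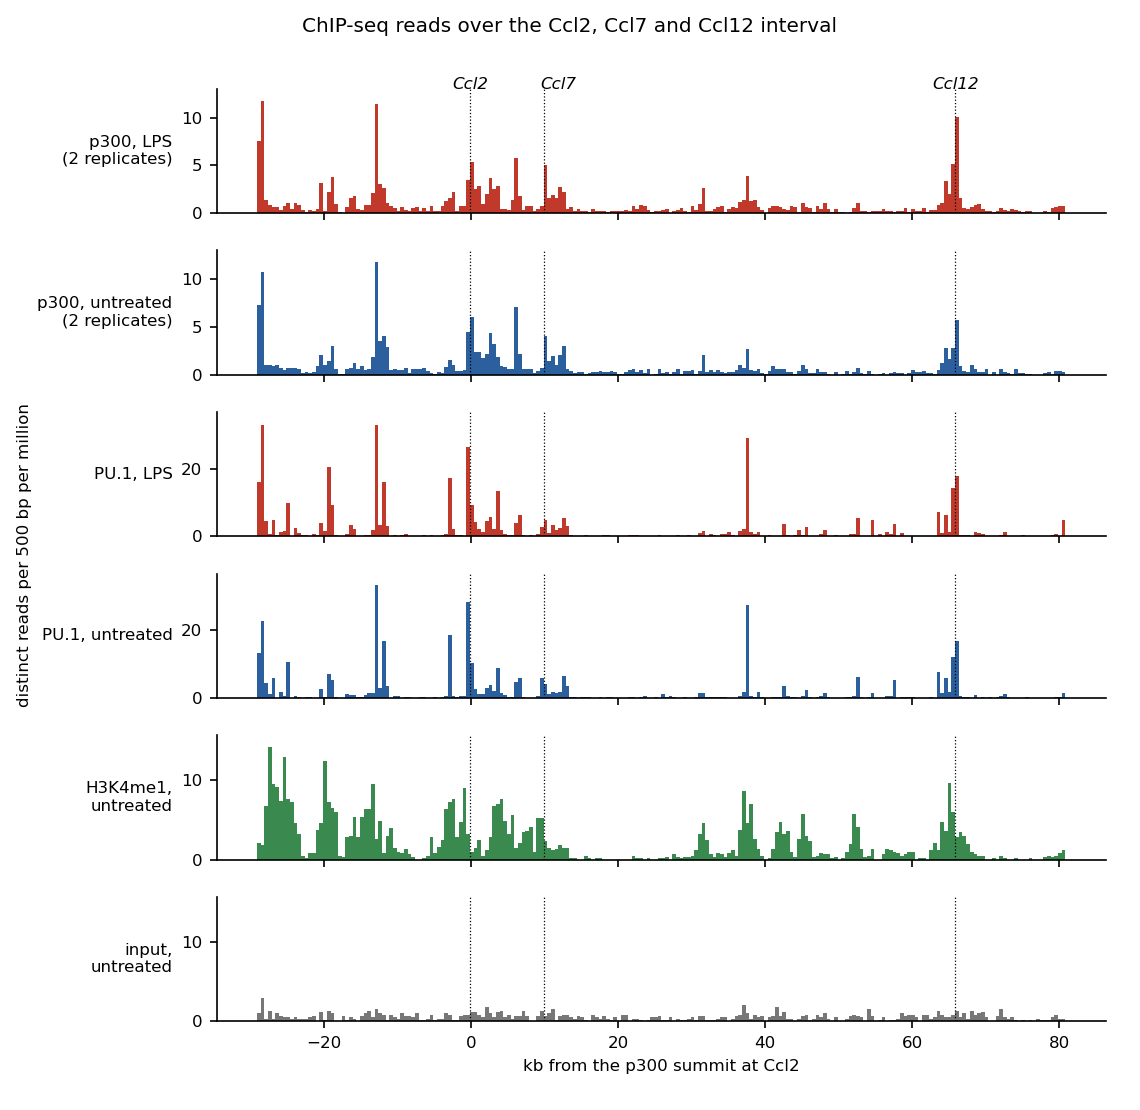
RPM per 500 bp in each mark and condition (vertical axes) along the interval (horizontal axis, kb from the untreated p300 summit at Ccl2), with both replicates of p300 pooled and dotted lines at the approximate positions given for the 3 genes. p300 and PU.1 peaks recur at the same places after LPS and in untreated cells, H3K4me1 lies broadly around them, and the stretch between Ccl7 and Ccl12 holds few p300 peaks.

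The p300 peaks of untreated cells were all found again after LPS. Of the 16 LPS peaks of the interval, 11 overlapped an untreated p300 peak, against 38.2% of all LPS p300 peaks. All 11 untreated peaks overlapped an LPS peak, whereas 38.1% of untreated p300 peaks did so across the genome. The other 5 LPS peaks lay in the LPS list alone, and they held 25 to 38 untreated p300 reads over both replicates, most of them in replicate 2. Sites are named below by the distance of their centre from the centre of the p300 site at Ccl2, with a minus sign towards lower coordinates.

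No p300 site of the interval passed the test for a change with LPS. These are bulk libraries, in which fewer cells with p300 at a site and less p300 per cell cannot be told apart. Of the 16 sites, 0 were called higher, where 1.97% of the 19727 sites tested across the genome were, and 0 were called lower, where 0.213% were (limma voom, adjusted p under 0.05). At an unadjusted p under 0.05 the count was again 0, against 17.6% of all sites, and limma trend also called 0. The log2 fold changes, LPS over untreated, ranged from -0.57 to 0.62, with SE of 0.518 to 0.583 and adjusted p of 0.456 to 0.983. One residual variance was shared by all sites in the fit, so its SE and p do not reflect how far the replicates of a single site lay apart. The median size of the log2 fold change was 0.406 in the interval and 1 over all sites tested. The sites of the interval had more reads than most, however. Their normalised reads in untreated cells lay at percentiles 60.8 to 99.6 of all sites tested, with a median of 90.9. Their median SE was 0.549, against 0.723 over all sites. The values over all sites thus come mostly from sites with fewer reads, so they do not show the interval to be unusually steady.

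The direction of these small differences leaned upward but rested on single libraries. The log2 fold change was above 0 at 13 of 16 sites, against 50% of all sites, with a median of 0.36 against 0.0015. Without LPS replicate 2 it was above 0 at 8 sites, and the same number was found without untreated replicate 1, while without untreated replicate 2 it was 15 sites. In normalised reads, both LPS libraries lay above both untreated libraries at 4 of 16 sites, close to the 26.9% of all sites that did so. Both lay below at 0 sites, against 27.7% of all sites. Per distinct reads, a choice added after seeing the data, both counts in the interval were 0, against 25.1% of all sites above and 16.1% below. This scaling does not correct for enrichment. LPS replicate 1 had 2.31% of its distinct reads in peaks, below the 6.2% of untreated replicate 2. Untreated replicate 1 had 1.44%, below the 5.49% of LPS replicate 2. At sites with many p300 reads such gaps favour overlap, so the counts of 0 do not describe the response to LPS. Over the whole interval, LPS over untreated was 1.39 in replicate 1 (726 and 610 reads; exact 95% interval 1.25 to 1.55) and 0.99 in replicate 2 (1713 and 1765 reads; 0.926 to 1.06), so the pairs differed from each other. With median-of-ratios scaling in place of distinct reads, the values were 0.928 and 1.11, on the other side of 1 in both pairs. These exact intervals, and those of all ratios below, cover counting error only. Scaled to distinct reads, the central 95% of the windows ran from 0.822 to 1.27 for replicate 1, below its 1.39. For replicate 2 it ran from 0.738 to 1.3, around its 0.99. Replicate 1 was also more enriched after LPS (2.31%) than in untreated cells (1.44%), and the part this had in its ratio was not tested.

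**Figure D2:**
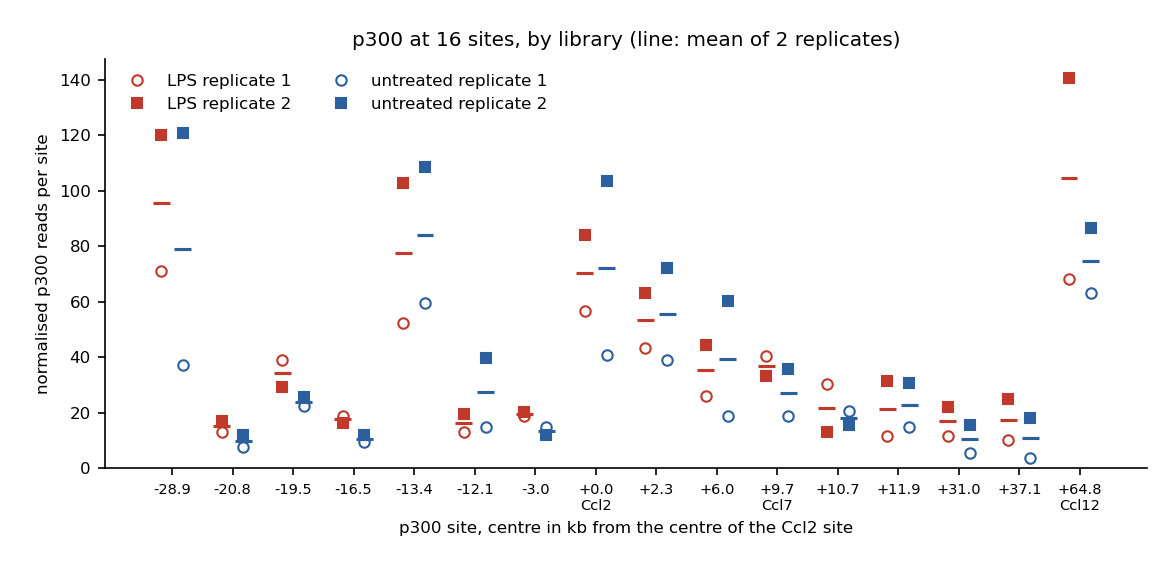
Normalised p300 reads (vertical axis) in each LPS and untreated library at the 16 p300 sites of the interval, in order along the chromosome (horizontal axis, kb from the centre of the Ccl2 site), with a line at the mean of 2 replicates. LPS and untreated libraries overlap at 12 sites, and replicate 2 (filled squares) is above replicate 1 (open circles) at most of the stronger ones.

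The site at Ccl2, chr11:81848474-81850715, held the approximate position given for that gene. Its p300 reads were 39 and 129 in LPS replicates 1 and 2, against 22 and 182 in untreated replicates 1 and 2. As normalised reads, scaled to a common library size, these were 56.5 and 84.1 after LPS and 40.9 and 103.6 in untreated cells. The LPS values lay between the untreated ones, so the groups overlapped. Untreated replicate 1 was 0.74 times input at this site (exact 95% interval 0.404 to 1.34), and LPS replicate 1 was 1.53 times input (0.919 to 2.59). The overlap thus rests on an untreated library that did not stand above input here. LPS over untreated on the log2 scale was 0.16 ± 0.56 (limma voom SE, adjusted p = 0.849), and its 95% interval ran from -0.94 to 1.26. It turned to -0.02 with a replicate block and to -0.60 without untreated replicate 1. The authors' peak scores were 417 after LPS and 482.1 in untreated cells, the scores being 10 times the -log10 p-value of each pooled list. PU.1 had 240 reads in the LPS library and 242 in the untreated library at the PU.1 site there, a ratio of 0.992 (0.826 to 1.19), so no difference was detectable at this depth. The PU.1 summit lay 390 bp from the p300 summit in both conditions.

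H3K4me1 was low at the middle of the Ccl2 site. In the 500 bp around its p300 summit the mark had 5 reads, which is 10 reads per kb, against 58 reads per kb in the flanks from 500 to 1500 bp on both sides. The ratio of centre to flanks was 0.172 (exact 95% interval 0.055 to 0.414). Input did not dip there, with 14 reads per kb at the centre and 11 in the flanks. The deposited H3K4me1 peaks broke off at 81848816 and began again at 81851520, so the approximate position given for Ccl2 lay in a gap between them. The peak before the gap had a score of 1326 and the one after it 820.6.

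The site at Ccl7, chr11:81858784-81859796, was weaker in reads but similar per kb. It had 28 and 51 p300 reads in the LPS replicates, against 10 and 63 in the untreated replicates. These scaled to 40.6 and 33.3 normalised reads after LPS and 18.6 and 35.9 in untreated cells. The groups overlapped, because untreated replicate 2 lay between the LPS libraries. Untreated replicate 1 was 0.725 times input at this site (exact 95% interval 0.284 to 1.79), so the untreated mean includes a library not above input. LPS over untreated, as log2, was 0.52 ± 0.52 (limma voom SE, adjusted p = 0.501), and it was 0.05 without untreated replicate 1. Per kb, the mean p300 level was 36.5 normalised reads after LPS and 26.9 in untreated cells at Ccl7, beside 31.4 and 32.2 at Ccl2. PU.1 at Ccl7 had 44 reads after LPS and 56 in untreated cells (ratio 0.786, 0.517 to 1.19). H3K4me1 had 28 reads per kb at the centre and 38.5 in the flanks (ratio 0.727, 0.38 to 1.29), a difference within counting error.

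The site at Ccl12, chr11:81912989-81915892, was the widest of the 16 at 2903 bp and had the most normalised p300 reads of them after LPS. It had 47 and 216 p300 reads in the LPS replicates, against 34 and 152 in the untreated replicates. The normalised reads were 68.1 and 140.9 after LPS and 63.2 and 86.5 in untreated cells. LPS replicate 2 was the highest library, LPS replicate 1 lay between the untreated ones, and the groups overlapped. As log2, LPS over untreated was 0.37 ± 0.58 (limma voom SE, adjusted p = 0.662), and it was -0.04 without LPS replicate 2. In the authors' pooled lists the peak score was 838.2 after LPS and 322.3 in untreated cells, the widest gap between the lists among the 3 gene sites. Each list pools both replicates, so no replicate spread goes with the scores. Per kb the mean level was 36 normalised reads after LPS and 25.8 in untreated cells.

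PU.1 at Ccl12 had 198 reads after LPS and 171 in untreated cells (ratio 1.16, 0.939 to 1.43), and its summit lay 25 bp from the p300 summit after LPS and 0 bp from it in untreated cells. Of the 3 gene positions, that of Ccl12 alone lay inside an H3K4me1 peak, with a score of 803.2. That peak ended at 81915136, just past the position of 81915000. The peak before Ccl7 ended at 81858972, just short of its position of 81859000. The gene positions are given only approximately, so this does not set Ccl12 apart from Ccl7. The mark had 48 reads per kb at the centre of the p300 site and 64 in the flanks (ratio 0.75, 0.464 to 1.17).

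The RefSeq promoter table held 1 of the 3 member genes, Ccl12. Its 250 bases before the transcription start are shown because the site with most p300 reads after LPS lies at this gene. They lie on chromosome 11 from 82101595 to 82101844 of GRCm38.p6, on the plus strand. This build differs from that of the peaks, so the sequence was not placed within the p300 site. Capitals mark matches to the motifs searched.
Ccl12: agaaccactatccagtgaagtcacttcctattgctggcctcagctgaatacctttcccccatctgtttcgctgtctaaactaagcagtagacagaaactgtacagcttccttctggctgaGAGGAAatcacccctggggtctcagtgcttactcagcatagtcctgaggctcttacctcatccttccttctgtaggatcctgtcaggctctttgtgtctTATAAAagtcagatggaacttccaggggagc

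Motifs were searched on both strands of these 250 bases. The PU box GAGGAA, a core recognised by PU.1, matched at 1 place starting at base -130 from the transcription start, and 23.3% of 32851 promoters in the table hold it in the same window. TATAAA, the TATA box, matched at 1 place starting at base -31, against 12.4% of promoters. The 2 matches do not overlap. TGANTCA (AP-1, in 6.75% of promoters), GAAANNGAA (a pair of IRF core motifs, 7.13%), TTGCNNAA (C/EBP, 9.56%) and the kappaB consensus (7.25%) had 0 matches in this window. Matches of such short letters are a description of the sequence and not evidence of binding.

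**Figure D3:**
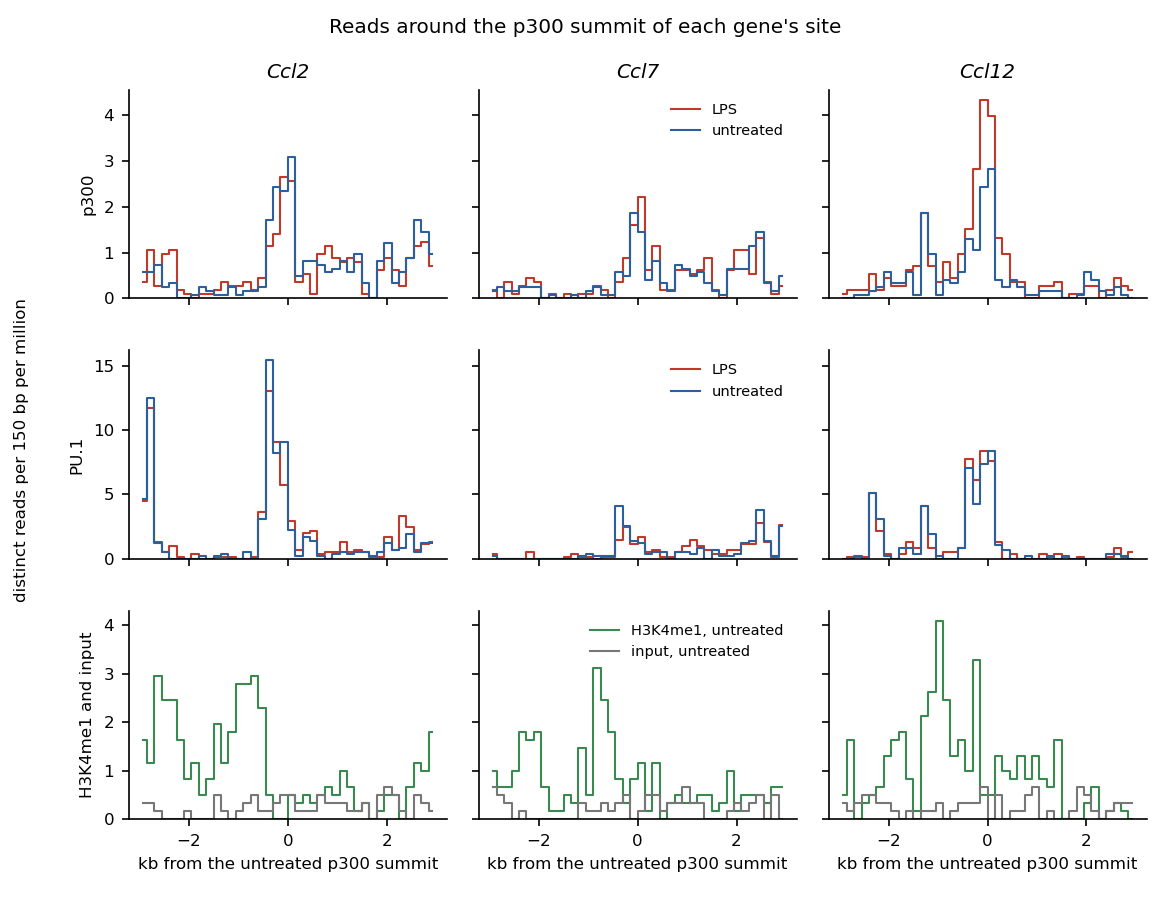
RPM per 150 bp (vertical axes) within 3 kb of the untreated p300 summit (horizontal axes) at Ccl2, Ccl7 and Ccl12, for p300 (both replicates pooled), PU.1, and H3K4me1 with input. LPS and untreated p300 lie close together at Ccl2 and Ccl7, LPS is higher in pooled reads at Ccl12, and H3K4me1 is near input at the Ccl2 summit.

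Beyond the gene sites, the strongest p300 signal per kb lay at the low-coordinate end of the interval. The -28.9 kb site, chr11:81820101-81821345, had 49 and 184 p300 reads in the LPS replicates, against 20 and 212 in the untreated replicates. Per kb, it had a mean of 76.8 normalised reads after LPS and 63.4 in untreated cells, at percentiles 99.8 and 99.6 of all sites tested. Untreated replicate 1 was 0.785 times input at this site (exact 95% interval 0.411 to 1.48), so the untreated mean includes a library not above input. The log2 ratio of LPS over untreated was 0.55 ± 0.58 (limma voom SE, adjusted p = 0.514) and turned to -0.42 without untreated replicate 1. Across the 16 sites the level per kb ranged from 18.1 to 76.8 after LPS and from 10.9 to 63.4 in untreated cells, while the medians of all sites were 15.1 and 17.

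The -13.4 kb site, chr11:81835223-81837135, was the next strongest per kb after LPS. It had 36 and 158 reads in the LPS replicates, against 32 and 191 in the untreated replicates. The -12.1 kb site, chr11:81837251-81837802, had 9 and 30 reads after LPS and 8 and 70 in untreated cells. It had the lowest fold change of the 16, at -0.57 ± 0.52 (limma voom SE, adjusted p = 0.465), resting on untreated replicate 2: without that library the value was 0.09. At both sites the LPS values were not separate from the untreated ones.

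Close to Ccl2 and Ccl7 lay 3 more sites present in both lists. The +2.3 kb site, chr11:81850925-81852950, had 30 and 97 p300 reads after LPS and 21 and 127 in untreated cells. The +6.0 kb site, chr11:81855037-81856124, had 18 and 68 reads after LPS and 10 and 106 in untreated cells. The +11.9 kb site, chr11:81860998-81862007, had 8 and 48 reads after LPS and 8 and 54 in untreated cells. These sites had log2 fold changes of 0.02, 0.06 and -0.17, and the groups overlapped at all 3. Further out, the -19.5 kb site, chr11:81829523-81830695, had 27 and 45 reads after LPS and 12 and 45 in untreated cells. After scaling, both LPS libraries (39.1 and 29.4 normalised reads) lay above both untreated ones (22.3 and 25.6), with a log2 fold change of 0.51 ± 0.52 (limma voom SE, adjusted p = 0.509). The +31.0 kb site, chr11:81880219-81881054, had 8 and 34 reads after LPS and 3 and 27 in untreated cells, and its groups overlapped.

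The 5 sites in the LPS list alone were not free of p300 reads in untreated cells. The -20.8 kb site, chr11:81828571-81828976, had 9 and 26 reads after LPS and 4 and 21 in untreated cells. The -16.5 kb site, chr11:81832600-81833571, had 13 and 25 reads after LPS and 5 and 21 in untreated cells. The -3.0 kb site, chr11:81846156-81847028, had 13 and 31 reads after LPS and 8 and 21 in untreated cells. At these 3 sites both LPS libraries lay above both untreated ones after scaling. The +10.7 kb site, chr11:81859887-81860796, had 21 and 20 reads after LPS and 11 and 27 in untreated cells. The +37.1 kb site, chr11:81886402-81887012, had 7 and 38 reads after LPS and 2 and 32 in untreated cells. The groups overlapped at these other two sites. The log2 fold changes of the 5 sites ran from 0.18 to 0.62, so a peak called in the LPS list alone went with a small difference in reads and not with a called change. Which list held a peak was set on these same reads, so the direction of their fold changes is a description.

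PU.1 was present at most p300 sites of the interval in both conditions. Of the 16 LPS p300 peaks, 11 lay at an LPS PU.1 peak, and each of the 11 untreated p300 peaks lay at a PU.1 peak of untreated cells. Genome-wide these shares were 54.3% for LPS and 59.3% for untreated peaks. LPS appears in a header line of the PU.1 list labelled untreated. The peaks of each list alone held more reads of the library of its label. This ties each list to its reads but cannot show whether both carry the right label. With the 2 PU.1 lists exchanged, a choice added after seeing the data, the counts were 14 of 16 LPS peaks, against 50.9% of all LPS p300 peaks, and 9 of 11 untreated peaks, against 58.8%. Of the 24 PU.1 sites, 18 held a peak in both PU.1 lists, against 66.7% of all PU.1 sites, and 15 overlapped a p300 peak, against 12.2%. By list, 18 of 20 LPS and 18 of 22 untreated PU.1 peaks overlapped one of the other list, near the 79.6% and 80.8% found across the genome. The sites with a p300 peak had 31 to 563 PU.1 reads over both libraries, with a median of 218, and the 9 without one had 18 to 120, with a median of 42. The median over all PU.1 sites of the genome was 38 reads.

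Counting distinct reads, no PU.1 site passed the 2-fold bound between the LPS and the untreated library, but smaller differences leaned upward. Over the whole interval, PU.1 after LPS over untreated was 1.17 (1.11 to 1.24). The central 95% of the windows ran from 0.753 to 1.57. Of 24 sites, 19 had at least 40 reads, and among these 0 had an exact 95% interval of the ratio wholly beyond 2-fold. Of all sites with at least 40 reads, 0.564% were so higher and 0.0536% lower, so 0 of 19 is near the share of all sites. The median ratio of LPS over untreated was 1.05, beside 0.972 for all sites with at least 40 reads. With 1 library per condition there is no replicate check, so the ratios compare 2 libraries. The interval lay above 1 at 5 of the 19 sites, against 7.92% of all, and below 1 at 0, against 8.81%. The count of 5 was 4 with distinct reads as library size and 7 with all reads kept.

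The -19.6 kb PU.1 site, chr11:81829443-81830477, had the largest difference in reads, with 183 PU.1 reads after LPS and 74 in untreated cells (ratio 2.47, 1.88 to 3.29). It overlapped the -19.5 kb p300 site, where p300 was also higher in both LPS libraries without passing the test. With all duplicate reads kept, its ratio was 2.82 (2.22 to 3.61), past the 2-fold bound. The ratio alone exceeded 2 at 2 further PU.1 sites, neither with a p300 peak. The +54.0 kb site, chr11:81903440-81903806, had 31 reads after LPS and 10 in untreated cells (ratio 3.1, 1.48 to 7.09), and its peak was in the LPS list alone. The +80.3 kb site, chr11:81929603-81930210, at the edge of the interval, had 33 and 9 reads (ratio 3.67, 1.72 to 8.71). By the ratio alone, 3 of the 19 PU.1 sites with at least 40 reads were thus beyond 2-fold higher. Of all such sites, 3.14% were higher and 2.34% lower. The 2 p300 sites without a PU.1 peak in either list also had more PU.1 reads after LPS, on few reads. The -16.5 kb p300 site had 27 PU.1 reads after LPS and 9 in untreated cells (ratio 3, 1.37 to 7.25). The +10.7 kb p300 site had 29 and 14 (2.07, 1.06 to 4.24).

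The strongest PU.1 sites by reads had smaller ratios, though not all of them were close to 1. The -28.8 kb site, chr11:81820097-81821525, had 327 reads after LPS and 236 in untreated cells (ratio 1.39, 1.17 to 1.64), the most PU.1 reads of the interval. The -13.3 kb site, chr11:81835725-81836774, had 227 and 213 reads in the LPS and untreated libraries (1.07, 0.88 to 1.29). The +36.9 kb site, chr11:81885883-81887067, had 194 and 172 reads (1.13, 0.914 to 1.39). At the -28.8 kb site the interval excluded 1, and at the other two sites it included 1. With all reads kept it excluded 1 there too, at 1.16 (1.01 to 1.34) for the -13.3 kb site and 1.22 (1.03 to 1.45) for the +36.9 kb site. The +3.1 kb site, chr11:81852390-81852916, was the fifth site with an interval above 1, at 80 LPS and 54 untreated reads (1.48, 1.04 to 2.13), although its peak was in the untreated list alone. With distinct reads as library size its interval reached 1, at 1.42 (0.995 to 2.05).

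At the other p300 sites with a PU.1 site, both libraries had nearly the same PU.1 reads. The -12.1 kb site had 108 reads after LPS and 110 in untreated cells, and the -3.1 kb site had 118 after LPS and 112 in untreated cells. The +5.9 kb site had 60 and 62 reads in the LPS and untreated libraries, and the +12.1 kb site had 67 and 68. The -20.8 kb site had 18 LPS and 16 untreated reads, the +31.0 kb site 14 and 17, and the +63.4 kb site 44 and 49. All 7 intervals included 1. The 7 further PU.1 sites without p300 had ratios from 0.71 to 1.7, and their intervals included 1 as well.

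**Figure D4:**
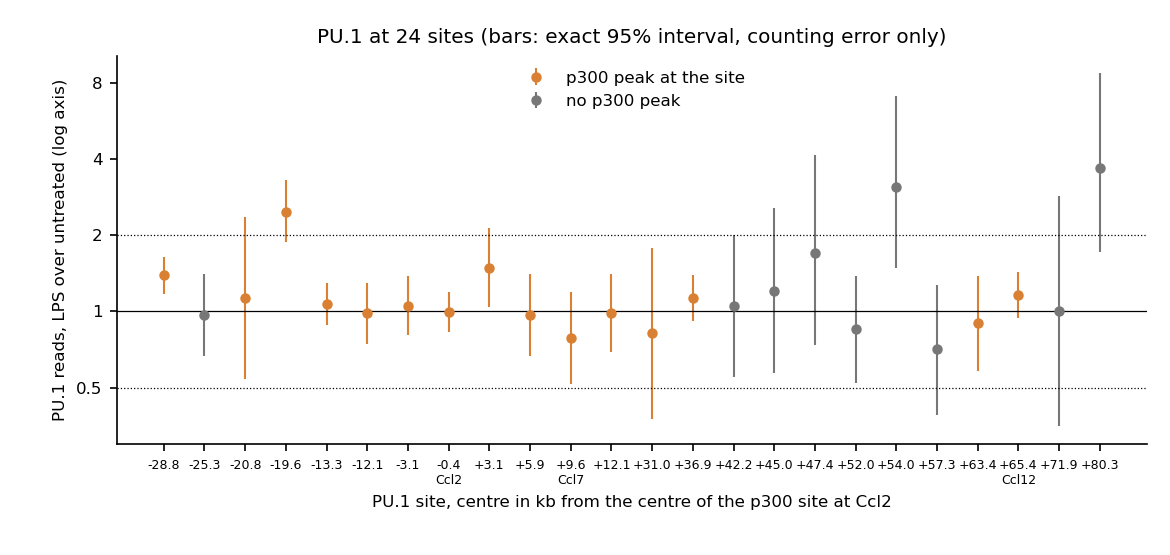
Ratio of PU.1 reads, LPS over untreated (vertical log axis), at the 24 PU.1 sites in order along the chromosome (horizontal axis, kb from the centre of the p300 site at Ccl2). Points are ratios and bars exact 95% intervals for counting error. Most intervals cross 1, and 3 ratios exceed 2 without an interval wholly above it.

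H3K4me1 in untreated cells covered 33.9% of the interval and p300 sites covered 18%. Its 27 peaks had a median ratio over input of 6.62, from 3.58 to 20.8, beside 6.72 for all H3K4me1 peaks. The peak of the highest score, 2932, was chr11:81820742-81825428, with 492 H3K4me1 reads against 40 input reads (ratio 12.2, 8.84 to 17.3), at percentile 99.94 of all H3K4me1 scores. It began inside the -28.9 kb p300 site, which was itself the strongest p300 site per kb. Over the whole interval H3K4me1 had 2937 reads against 743 for input, a ratio of 3.92 (3.62 to 4.26), where the median window had 0.356. With background bins as library size the ratio was 17.1 (15.8 to 18.6), so its size depends on the scaling. An H3K4me1 peak was found at 13 of 16 LPS p300 peaks, against 50.7% across the genome, and at 9 of 11 untreated ones, against 56.3%.

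The mark did not lie on the p300 summits in the same way at all sites. It was lower at the centre than in the flanks at 9 of 16 sites, against 46.5% of all p300 sites tested. The interval of the ratio lay below 1 at 5 of these, against 13.6% of all sites tested. They were the -28.9 kb site (0.216, 0.102 to 0.407), the -13.4 kb site (0.587, 0.324 to 0.997), the -12.1 kb site (0.0988, 0.0118 to 0.368), Ccl2 (0.172) and the +6.0 kb site (0.356, 0.149 to 0.731). All 5 sites were in both p300 lists. At the -12.1 kb site the mark had 2 reads in the whole site against 4 of input, and no H3K4me1 peak overlapped it. The interval lay above 1 at 2 sites, against 17.5% of all, at -3.0 kb (1.94, 1.34 to 2.77) and at +31.0 kb (3.84, 2.1 to 7.01). Input was lower at the centre than in the flanks at 6 of 16 sites.

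By list, H3K4me1 was lower at the centre at 8 of the 11 sites in both p300 lists and at 1 of the 5 sites in the LPS list alone. Over all sites tested these shares were 61.5% of the sites in both lists and 39.1% of those in the LPS list alone, so the same direction was found across the genome. The same counts, 8 and 1, were found when the windows were centred on the LPS summit, a choice made after seeing the data, although the +2.3 kb site then had a ratio of 1.52 and the -19.5 kb site one of 0.93. Untreated p300 reads helped decide which list held a site, so the mark's position and untreated p300 strength cannot be told apart here. LPS and untreated summits differed by up to 480 bp at the sites in the LPS list alone and by 960 bp at the +2.3 kb site, which is in both lists.

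**Figure D5:**
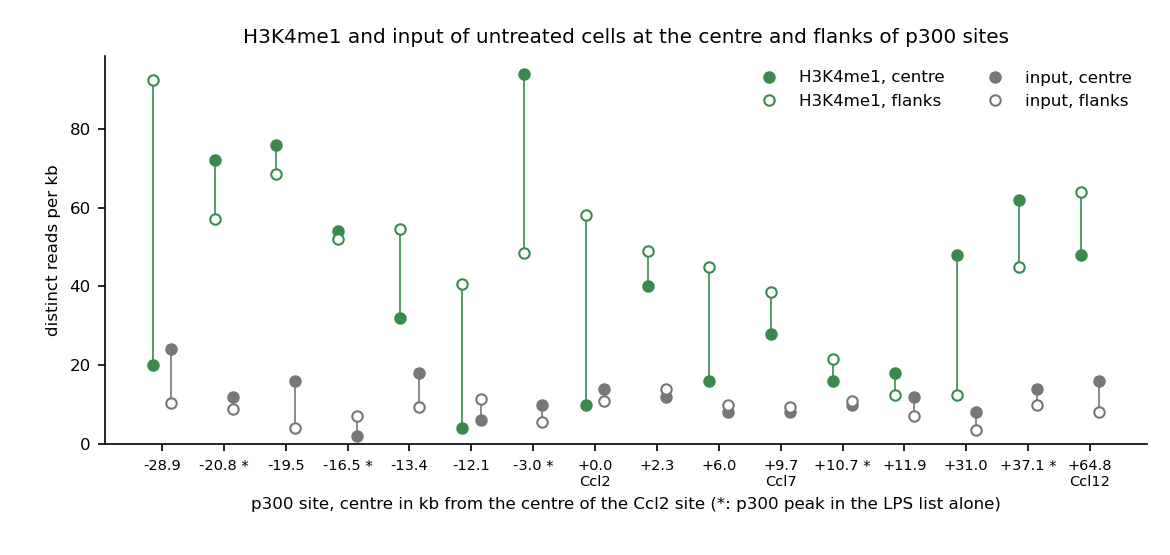
Distinct reads per kb (vertical axis) of H3K4me1 and input, both from untreated cells, within 250 bp of the untreated p300 summit (filled) and 500 to 1500 bp from it (open) at the 16 p300 sites (horizontal axis, kb from the centre of the Ccl2 site; asterisks mark sites in the LPS list alone). H3K4me1 is 10 per kb at the Ccl2 centre against 58 in its flanks, while input differs little.

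Part of the stretch between Ccl7 and Ccl12 held PU.1 and H3K4me1 without p300. Between the +37.1 kb p300 site and the Ccl12 site there was no p300 peak in either list, but 6 PU.1 sites and 7 H3K4me1 peaks. These PU.1 sites had 27 to 74 reads over both libraries, below the median of 218 for PU.1 sites with p300. The +52.0 kb site, chr11:81901341-81901865, was the strongest of them, with 34 PU.1 reads after LPS and 40 in untreated cells, and it lay in H3K4me1 peaks. p300 had 2 and 13 reads there after LPS and 4 and 7 in untreated cells, beside 5 input reads. Of the 9 PU.1 sites without p300 in the whole interval, 4 overlapped an H3K4me1 peak.

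Over the 7 precipitated libraries, the windows most alike to the interval in RPM were found by the distance of log2 values. They were chr11:83380758-83490758 (distance 0.458), chr16:96030873-96140873 (0.541) and chr17:35310321-35420321 (0.562), where the median window was at 8.9. They held 17, 10 and 7 p300 sites. No annotation of build mm9 was used, so the genes in these windows are not named, and other chemokine genes were not analysed here.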

How the data were processed

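ChIP-seq reads and peak lists on build mm9, per the submitters' processing notes, were used as deposited. Each p300 condition had 2 biological replicates, merged for the deposited peak lists per the labels' design text. Peaks carry the authors' MACS score, 10 times the -log10 p-value. The background libraries were "naked" for p300, "random" for PU.1 and input for H3K4me1, per the file headers. LPS appears in a header line of the PU.1 list labelled untreated, and the labels were followed. Peaks of the LPS list alone held 209142 distinct reads of the LPS PU.1 library and 99960 of the untreated one, and peaks of the untreated list alone held 112983 and 205573. Each list thus went with the library of its label. The labels of the reads themselves, on which the direction of the PU.1 ratios rests, were not tested. Aligner and caller versions are not given in the sources used here.

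Counts were made here from the deposited reads, 36 bp long by their coordinates. Reads at the same position and strand counted once, their 5' ends were shifted by 100 bp, and chromosomes 1 to 19 and X were used. RPM are reads per 1000000 distinct reads of a library. p300 peaks of both conditions were merged, and the 19727 sites with at least 10 reads were fitted by voom in limma 3.58.1 (R 4.3.3) on treatment, with median-of-ratios scaling. Adjusted p-values are Benjamini-Hochberg, with a threshold of 0.05. Normalised reads are scaled to the geometric mean library size. PU.1 and H3K4me1 ratios carry exact 95% intervals conditional on the sum of both libraries' reads. PU.1 sites needed at least 40 reads to be counted. Windows of 110 kb needed at least 0.5 times the median input reads. Overlap means 1 bp or more. A summit is the middle of the 200 bp with most reads.

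All p300 sites were described, and PU.1 sites in full where they overlapped a p300 peak, passed a ratio of 2 or were among the 5 with most reads. The genes, the interval and the lists were chosen with earlier results of these data known. The code was tested on simulated data. The alternatives tried are given at the end. No mm9 genome or annotation was used, so peak sequences, gene bodies, marker genes and other chemokine genes were not analysed here. Promoter sequence is from RefSeq on GRCm38.p6. Counting used Python 3.11.15 and scipy 1.17.1.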

Additional observations from a re-analysis of the deposited data

How the results depend on the processing

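No p300 site of the interval was called higher or lower under any of the 11 alternatives tried: distinct reads or background bins as library size, all reads kept, a 50 bp shift, no filter, limma trend, a replicate block, and each of the 4 p300 libraries left out. The same settings moved the calls across all sites from 388 higher and 42 lower to 0 and 0 with distinct reads or background bins as library size, so those settings could call nothing in the interval. Leaving out single libraries gave 13 and 0 without LPS replicate 1, 66 and 0 without LPS replicate 2, 485 and 222 without untreated replicate 1, and 44 and 282 without untreated replicate 2. The replicate block gave 896 and 395. The replicate numbers are shared between conditions without a stated pairing, and there are only 2 pairs. Over the 19727 sites tested, the deviations of replicate 1 from its group mean had a Pearson correlation of 0.274 between LPS and untreated cells. Replicate 1 was the less enriched one in both conditions. In the interval the block turned the log2 fold change to -0.02 at the Ccl2 site, -0.06 at the +2.3 kb site and -0.16 at the +6.0 kb site. Distinct reads as library size gave 0.05 at the -13.4 kb site and 0.01 at the +11.9 kb site, background bins gave 0.03 at the -13.4 kb site, and limma trend gave -0.02 at the +2.3 kb site. Both library-size settings moved the median log2 fold change of all sites, to 0.197 with distinct reads and 0.157 with background bins.

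With single libraries left out, the log2 fold change crossed 0 at 11 sites. It ran from -0.42 to 1.23 at -28.9 kb, from -0.61 to 0.49 at -13.4 kb, from -1.22 to 0.09 at -12.1 kb, from -0.60 to 0.69 at Ccl2, from -0.47 to 0.38 at +2.3 kb, from -0.81 to 0.80 at +6.0 kb, from -0.43 to 0.75 at +10.7 kb, from -0.76 to 0.54 at +11.9 kb, from -0.03 to 1.39 at +31.0 kb, from -0.34 to 1.88 at +37.1 kb and from -0.04 to 0.99 at Ccl12. It stayed above 0 at the other 5 sites, from 0.31 to 0.90 at -20.8 kb, from 0.28 to 0.72 at -19.5 kb, from 0.50 to 0.81 at -16.5 kb, from 0.34 to 0.72 at -3.0 kb and from 0.05 to 0.94 at Ccl7. The cause was not tested.

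The count of PU.1 sites past 2-fold was 1 with all reads kept and 3 by the ratio alone with at least 20 reads, and 0 with distinct reads as library size or a 50 bp shift. H3K4me1 over input for the whole interval was 17.1 with background bins as library size. p300 over the whole interval was 0.928 in replicate 1 and 1.11 in replicate 2 with median of ratios as library size. With peaks of a score of at least 100, 8 of 14 LPS and 8 of 9 untreated p300 peaks overlapped a PU.1 peak, and with an overlap of at least 50% of the p300 peak, 10 of 16 and 9 of 11. Small p300 changes were not detectable at any of the 16 sites, where the SE of the log2 fold change was 0.518 to 0.583. This held at the sites with 25 to 38 untreated reads over both replicates and at those with more, with 0.583 at Ccl12.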
